A study of Mus musculus with 12 samples.

Results

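The response of CBP/p300 null mouse embryonic fibroblasts (MEFs) to 2,2'-dipyridyl (DP) was read from 6 of the 12 arrays of the series, 3 of cells given DP and 3 of cells given ethanol, its vehicle. The arrays were selected by their labels, which name CBP/p300 null (dKO) lines 1, 5 and 6 and the treatment, and each line was hybridized once per treatment. The remaining 6 arrays hold wild-type lines 3, 4 and 5 under the same treatments and served as the comparison. Their spread also entered the error behind the calls in dKO cells. All cells were primary fibroblasts of strain C57Bl/6 x 129Sv (F1), taken from e14.5 embryos and used at passage 4. The dKO cells were homozygous for conditional alleles of the genes for both CBP and p300. Cultures of both genotypes received adenovirus expressing Cre recombinase at a multiplicity of infection of 100, so the controls carry the virus and Cre too. Virus was left on for 16 h and replaced by fresh medium for 48 h, in 3% oxygen throughout. After 24 h of normoxia, 100 µM DP or ethanol was added for 3 h. The share of cells in which Cre had removed both genes was not stated. The Crebbp probe set, which reads the gene for CBP, lay between 7.02 and 7.69 log2 on dKO arrays and between 8.07 and 8.55 on wild-type arrays. Where it lies relative to the deletion was not stated, so this difference in level does not check the deletion, and the p300 gene was not analysed here.

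Cells sense oxygen through prolyl hydroxylases that use iron and oxygen to mark the alpha subunit of hypoxia-inducible factor (HIF), which the VHL ubiquitin ligase then destroys. DP chelates iron, stops these hydroxylases and lets HIF accumulate in normal oxygen, and HIF bound to RCGTG motifs then turns on genes for glucose uptake, glycolysis, blood vessel growth and oxygen sensing itself. CBP and p300 are lysine acetyltransferases that bind the transactivation domains of HIF alpha and serve as its best known coactivators.

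Levels are log2 values after robust multi-array averaging (RMA), a change is the DP mean minus the ethanol mean of the 3 dKO lines in log2 units, and the value after ± is its limma standard error with n = 3 arrays per group. Calls were made in a limma fit of the 12 arrays wherever the Benjamini-Hochberg adjusted p over 17097 genes was below 0.05. Each gene was read by 1 probe set. The arrays had medians of 3.87 to 3.98 log2. Blank control probe sets lay mostly under 3.54, the limit below which a mean is called near blank. Among the dKO arrays, the ethanol array of line 1 stood apart. It read at least 2-fold below both other ethanol arrays for 290 genes, against 1 gene for the ethanol array of line 5 and 6 for that of line 6. Of those 290 genes, 4 were called (1.5% of all genes were): Abhd18, Dubr, Rora and Zfp292. The calls depended on this array beyond these 4 genes. Without it, 147 of the 172 called rises and 34 of the 84 called falls stayed called. For beta-actin, the 3' minus 5' probe set difference, a measure of RNA integrity, lay between 0.40 and 0.45 in dKO ethanol arrays and between 0.48 and 0.60 in dKO DP arrays, so it moved with the treatment, and its part in the results was not tested. That of GAPDH did not move the same way, at 0.19 to 0.21 in ethanol and 0.10 to 0.19 with DP. In bulk RNA of this kind, fewer cells of a type and less RNA per cell cannot be told apart.

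DP changed 256 of 17097 genes in dKO cells, 1.5% of those tested. Of these, 172 rose (1.01% of the genes tested) and 84 fell (0.491%). The rises were larger: 93 reached 2-fold, 25 reached 4-fold and 6 reached 8-fold, while 6 falls reached 2-fold. The median called rise was 1.08 and the median called fall was -0.57, beside a median of -0.05 over all genes. All 256 moved in 1 direction in all 3 lines, with DP and ethanol arrays that did not overlap. For comparison, the DP arrays lay above all ethanol arrays for 6.32% of all genes and below them for 14.4%. At an unadjusted p under 0.05 the count was 2409 genes.

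The rises rested on all 3 lines more evenly than the falls. The median change over the called rises was 1.09 in line 1, 1.08 in line 5 and 1.03 in line 6. Over the called falls it was -0.69, -0.49 and -0.59, and line 1 had the largest fall for 49 of 84 genes. Line 1 also read lower with DP over all genes, with a median of -0.13 against -0.00 in line 5 and -0.03 in line 6. Leaving out both arrays of line 1 gave 125 rises and 23 falls, of which 122 and 17 were among the 172 and 84. Without the DP array of line 1 there were 153 calls (124 rises), and without that of line 6 there were 160 (140 rises). The falls alone numbered 37 and 49 without the ethanol array of dKO line 1 or 6, 29, 42 and 20 without the DP array of dKO line 1, 5 or 6, and 55 and 53 without the DP array of wild-type line 3 or 4. A fit of the 6 dKO arrays alone called 142 genes, 126 up and 16 down. With the MEF line as a replicate block in those arrays it called 149, 130 up and 19 down. Leaving out any single wild-type array gave 208 to 326 calls in dKO. Cyclic loess between arrays and median centring moved the share of rises among the calls from 67.2% to 82.3% and 80.6%, and array weights moved it to 40.8%. Across the fits that leave out 1 array, 134 genes were called in every one, 119 rises and 15 falls. Each gene was represented by 1 probe set. With the mean of its probe sets, 214 of the 256 calls were kept, 152 rises and 62 falls. Among the lost calls were 15 of named genes (adjusted p 0.051 to 0.317): Car12, Tfrc, Cybrd1, Ptgs2, Spred2, Lif, Adamts9, Id2, Foxc1, Sox4, Efnb1, Reep1, Npepps, Rhno1 and Rnf144b.

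**Figure D1:**
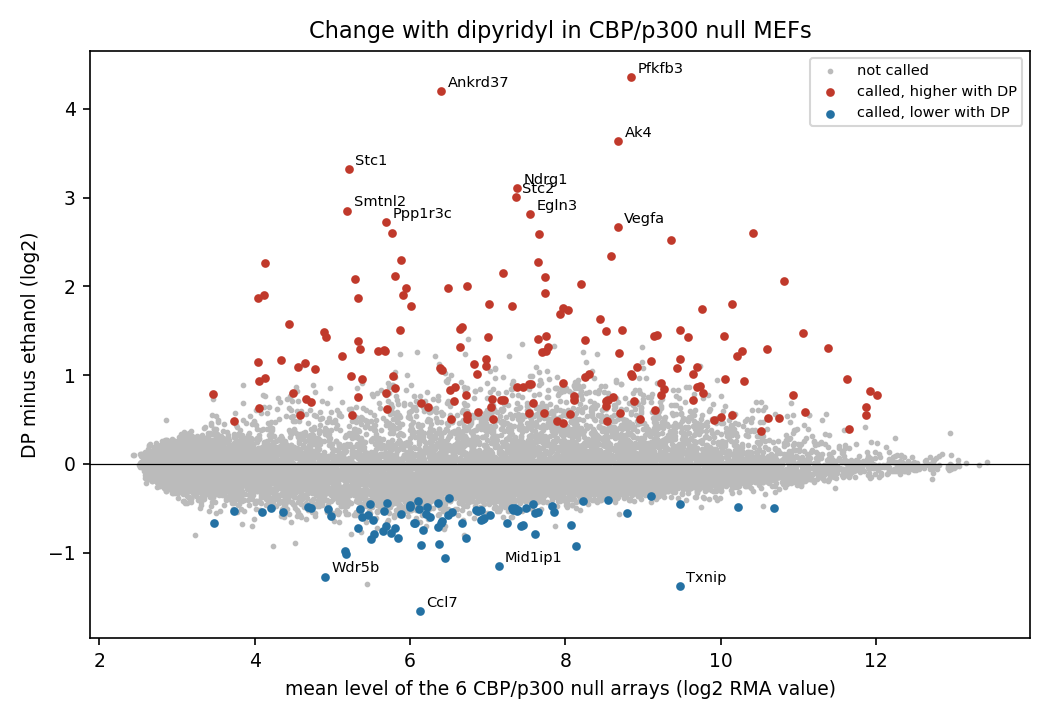
Change with DP (log2, vertical) against the mean level of the 6 dKO arrays (log2 RMA value, horizontal) for 17097 genes, 1 point per gene. The 172 called rises (red) spread up to 4.36 for Pfkfb3, while the 84 called falls (blue) reach -1.66 for Ccl7.

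Promoters of the largest rises and falls were searched for the core of the HIF motif, ACGTG or GCGTG, on both strands. The sequences below belong to the 4 largest rises and the 2 largest falls in dKO cells among genes with a listed promoter, and each holds a match. For the rises a match was a condition of being shown. Stc1, Ndrg1 and Ccl7, with changes as large, had no listed promoter. Among the 16 largest rises Smtnl2 and Apln, and among the 16 largest falls Mid1ip1, Lurap1l and Aurka, had a listed promoter without a match. The sequences run 5' to 3' on the gene's strand over 250 bases before and 50 after the start, from RefSeq (GRCm38.p6). Capitals mark matches on either strand, so CACGT and CACGC are the reverse complements. Pfkfb3 and Ak4 have 2 and 4 listed promoters, of which 1 is shown. The stretches are chr2:11553880-11554179 (minus strand) for Pfkfb3, chr8:45999801-46000100 (minus) for Ankrd37, chr4:101419039-101419338 (plus) for Ak4, chr11:31370012-31370311 (minus) for Stc2, chr3:96557707-96558006 (plus) for Txnip and chr16:36040940-36041239 (plus) for Wdr5b.
Pfkfb3: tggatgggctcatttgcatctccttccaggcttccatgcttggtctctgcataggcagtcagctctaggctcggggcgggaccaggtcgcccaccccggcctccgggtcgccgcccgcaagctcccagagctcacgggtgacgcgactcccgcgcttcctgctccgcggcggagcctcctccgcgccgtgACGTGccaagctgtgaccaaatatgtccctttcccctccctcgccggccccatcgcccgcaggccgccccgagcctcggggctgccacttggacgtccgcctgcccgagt
Ankrd37: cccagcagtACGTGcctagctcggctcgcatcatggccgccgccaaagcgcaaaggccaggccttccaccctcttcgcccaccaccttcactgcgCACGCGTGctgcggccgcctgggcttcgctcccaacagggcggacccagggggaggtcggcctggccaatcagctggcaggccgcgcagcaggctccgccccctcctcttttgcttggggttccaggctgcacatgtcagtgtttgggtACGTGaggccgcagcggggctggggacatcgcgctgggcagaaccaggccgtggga
Ak4: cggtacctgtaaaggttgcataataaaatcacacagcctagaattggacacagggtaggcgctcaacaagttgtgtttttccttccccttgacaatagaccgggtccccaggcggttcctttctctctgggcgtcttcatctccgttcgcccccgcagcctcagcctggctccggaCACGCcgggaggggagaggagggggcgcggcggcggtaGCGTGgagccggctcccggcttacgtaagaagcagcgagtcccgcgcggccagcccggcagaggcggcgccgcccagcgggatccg
Stc2: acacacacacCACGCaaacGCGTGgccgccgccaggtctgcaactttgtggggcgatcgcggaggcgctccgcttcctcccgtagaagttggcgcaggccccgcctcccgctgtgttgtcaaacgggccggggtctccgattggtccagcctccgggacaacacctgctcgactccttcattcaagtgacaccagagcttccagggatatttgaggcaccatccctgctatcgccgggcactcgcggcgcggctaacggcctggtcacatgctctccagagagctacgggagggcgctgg
Txnip: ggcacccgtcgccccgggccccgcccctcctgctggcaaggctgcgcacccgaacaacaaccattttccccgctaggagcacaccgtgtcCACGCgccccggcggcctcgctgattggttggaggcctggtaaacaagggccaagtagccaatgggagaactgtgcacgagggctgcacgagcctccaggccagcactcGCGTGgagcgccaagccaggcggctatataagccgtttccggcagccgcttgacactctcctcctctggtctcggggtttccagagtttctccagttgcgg
Wdr5b: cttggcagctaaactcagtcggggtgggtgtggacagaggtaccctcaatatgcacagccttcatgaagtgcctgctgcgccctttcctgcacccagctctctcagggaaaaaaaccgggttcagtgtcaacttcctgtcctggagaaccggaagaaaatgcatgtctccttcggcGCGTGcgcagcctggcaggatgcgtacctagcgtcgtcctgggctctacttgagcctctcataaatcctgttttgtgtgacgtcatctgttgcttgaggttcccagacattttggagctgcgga

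The match in Pfkfb3 begins 60 bases before the start. Ankrd37 has 3 stretches of matches, at -241, -155 and -6, the middle one formed by overlapping matches on both strands. Ak4 has matches at -74 and -36, Stc2 at -240 and -231, Txnip at -160 and -51 and Wdr5b at -74. A promoter was listed for 135 of the 172 rises, and 101 of them (74.8%) held a match. The share was 81.7% of 71 among rises of at least 2-fold, 66.7% of 60 among the falls and 55.5% of 13605 among all genes with a listed promoter. With ACGTG alone the shares were 47.4% of the rises, 26.7% of the falls and 23.2% of all genes. The full palindrome CACGTG, which contains ACGTG, stood in 11.1% of the rises, 11.7% of the falls and 9.0% of all genes. These are counts of letters in a fixed window, and no binding was measured.

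The largest rise in dKO cells among genes with 1 symbol was that of Pfkfb3, which makes the allosteric activator of the phosphofructokinase step of glycolysis. Its level was 6.81, 6.55 and 6.64 in ethanol and 11.07, 11.14 and 10.85 with DP in lines 1, 5 and 6. The DP arrays lay far above the ethanol arrays in each line, a rise of 4.36 ± 0.13 or 20.5-fold (adjusted p = 7.48e-10). A second Pfkfb3 probe set was also called but changed by 1.01, so the size depends on the probe set.

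Of 20 measured glycolytic enzymes, 10 rose and none fell (1.01% of all genes rose), and the list's median change was 0.50. The counts of the lists that follow stand beside the same shares, 1.01% of all genes that rose and 0.491% that fell. Hk2, a hexokinase that traps glucose in the cell, read 8.16, 8.02 and 8.12 in ethanol and 10.58, 10.74 and 10.54 with DP, a rise of 2.52 ± 0.09 (adjusted p = 3.22e-09). Pfkl, the liver type of phosphofructokinase, rose by 1.63 ± 0.18 from 7.89, 7.53 and 7.45 to 9.07, 9.08 and 9.62. Other members rose less: Aldoc by 1.08 ± 0.19, Hk1 by 0.98 ± 0.13, Tpi1 by 0.96 ± 0.12, Pfkp by 0.91 ± 0.12, Pgk1 by 0.78 ± 0.10 and Aldoa by 0.55 ± 0.09. Ldha, which reduces pyruvate to lactate, rose from 11.61, 11.43 and 11.46 to 12.34, 12.29 and 12.34, by 0.82 ± 0.09 (adjusted p = 0.000142). Within these levels the 3 DP arrays differed by less than the gap to the ethanol arrays. Among the members not called, the values were 0.44 for Pkm, 0.34 ± 0.08 for Gapdh (adjusted p = 0.069), 0.00 for Pfkm and -0.45 for Pfkfb2. The Aldoc call did not hold without the ethanol array of line 6 or the DP array of line 5 of dKO (adjusted p up to 0.0578).

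Of the 10 measured transporters of glucose and lactate, 3 rose and none fell. Slc2a1, the main glucose transporter of cultured fibroblasts, rose by 2.07 ± 0.15, from 10.10, 9.45 and 9.77 to 11.84, 11.86 and 11.82. The ethanol levels of the 3 lines differed more than their DP levels, and as for every called gene the groups did not overlap. Slc16a3, which exports lactate, rose by 2.08 ± 0.13 from 4.35, 4.26 and 4.14 to 6.24, 6.30 and 6.46. Slc2a3, a high-affinity glucose transporter, rose by 1.39 ± 0.19 (adjusted p = 0.00163), and 1 of its 4 probe sets stood at -0.01. Slc16a1, the monocarboxylate transporter of most tissues, changed by 0.30 and was not called.

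Glycogen genes rose as well, 5 of 15 measured with none falling. Ppp1r3c, which brings protein phosphatase 1 to glycogen, read 4.10, 4.49 and 4.38 in ethanol and 6.96, 7.37 and 6.84 with DP. The rise was 2.73 ± 0.20 or 6.63-fold, though a second, dimmer probe set of the gene changed by 0.20. Ppp1r3b, another glycogen-targeting subunit, rose by 1.73 ± 0.11, Gys1, the muscle type of glycogen synthase, by 1.26 ± 0.15, and Pgm1, a phosphoglucomutase, by 1.01 ± 0.14. Gbe1, the branching enzyme, rose by 0.83 ± 0.13. The breakdown enzymes Pygl and Pygb stood at 0.29 and -0.24 and were not called.

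Pdk1, the kinase that inactivates pyruvate dehydrogenase and so keeps pyruvate out of the mitochondrion, was the single called member among 12 genes of pyruvate entry. It rose by 2.03 ± 0.11, from 7.28, 7.20 and 7.07 to 9.19, 9.35 and 9.11, and its 3 probe sets gave 1.97 to 2.31. No gene was called among 17 of the citric acid cycle or 35 subunits of the respiratory chain, with median changes of -0.10 and -0.09. Sucla2, a subunit of succinyl-CoA ligase, showed the largest value of the cycle at 0.42 ± 0.28, but only the ethanol array of line 1 was low (8.91 against 9.99 and 9.64), and the groups overlapped. Ndufa4l2, a hypoxia-linked homologue of a respiratory subunit, stood at 0.50 ± 0.26, with levels of 3.76 to 4.27 in ethanol and 4.45 to 4.64 with DP (adjusted p = 0.391).

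Among 15 genes of mitophagy and mitochondrial shape 4 rose and none fell. Bnip3, a receptor that targets mitochondria for autophagy, read 8.95, 9.20 and 9.18 in ethanol and 11.72, 11.69 and 11.74 with DP, a rise of 2.61 ± 0.11 or 6.09-fold (adjusted p = 2.43e-08). Its 3 DP levels lay closer together than its ethanol levels, and as for every called gene the groups did not overlap. Bnip3l, its paralog, rose by 0.58 ± 0.11 from 10.61, 10.85 and 10.93 to 11.38, 11.36 and 11.39. Fam162a, encoding a mitochondrial protein induced by HIF, rose by 1.31 ± 0.09, and Higd1a, which associates with respiratory complexes, rose by 1.30 ± 0.10. The Bnip3l call did not hold without the ethanol array of line 1 or any single DP array of dKO (adjusted p up to 0.0898).

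**Figure D2:**
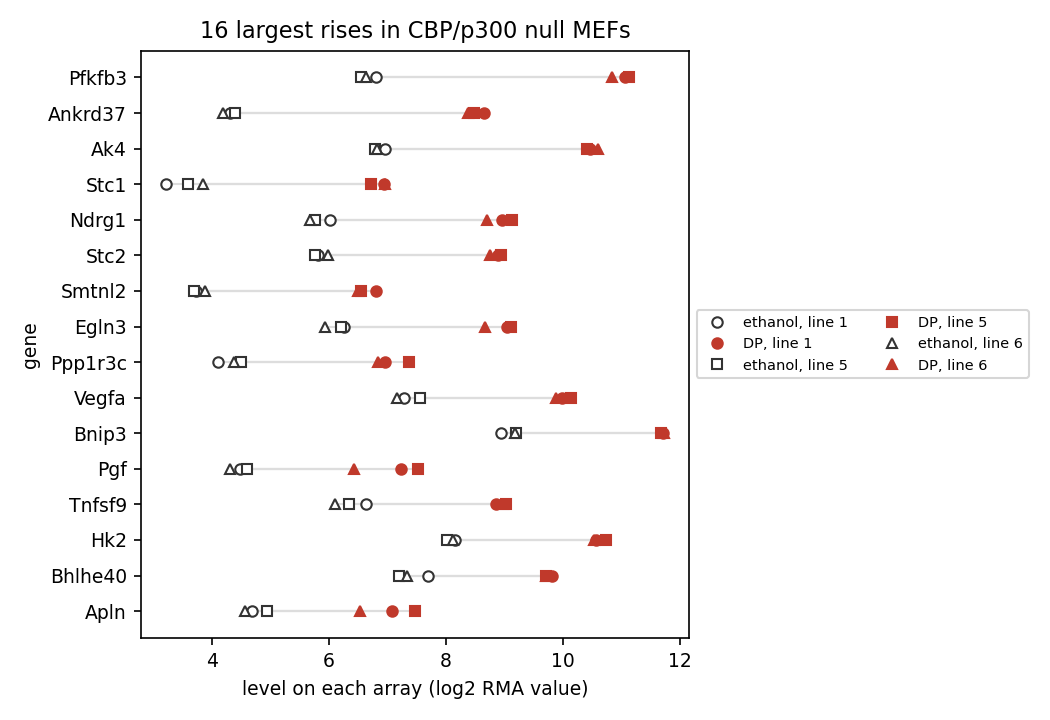
Levels (log2 RMA value) of the 16 largest rises on each of the 6 dKO arrays, 1 row per gene, with open symbols for ethanol, filled symbols for DP and a symbol shape for each line. For all 16 genes the 3 filled symbols lie to the right of the 3 open ones, and the lines differ most with DP for Pgf (6.44 to 7.53).

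The plot of the largest rises shows that lines differed little for most of these genes. Several of them encode secreted factors. Of 17 vascular and endocrine factors measured, 6 rose and none fell. Stc1, a stanniocalcin, read 3.22, 3.60 and 3.84 in ethanol, at or just above the blank level, and 6.94, 6.73 and 6.96 with DP. Its rise of 3.32 ± 0.18 is understated where the ethanol level lies close to blank, and a second probe set changed by 0.21. Stc2, its paralog, rose by 3.01 ± 0.10 from 5.82, 5.76 and 6.00 to 8.90, 8.94 and 8.77, with all 3 of its probe sets called.

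Vegfa, the principal growth factor for blood vessels, read 7.29, 7.55 and 7.17 in ethanol and 9.99, 10.15 and 9.88 with DP. It rose by 2.67 ± 0.12 or 6.37-fold (adjusted p = 3.14e-08). Pgf, encoding the related placental growth factor, rose by 2.60 ± 0.21 from 4.47, 4.61 and 4.30 to 7.23, 7.53 and 6.44, and Apln, encoding the peptide apelin, by 2.30 ± 0.19 from 4.68, 4.94 and 4.56 to 7.08, 7.47 and 6.54. For both, line 6 reached the lowest level with DP, above every ethanol array as in all called rises. Adm, encoding the vasodilator adrenomedullin, rose by 1.25 ± 0.12. Vegfb, Vegfc and Vegfd stood at 0.02, -0.28 and -0.12, and Angptl4 at 0.22, and none of these was called.

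The oxygen-sensing loop itself was represented among the rises. Of 14 HIF subunits and regulators, 3 rose. Egln3, an inducible HIF prolyl hydroxylase, read 6.27, 6.21 and 5.94 in ethanol and 9.06, 9.12 and 8.68 with DP, a rise of 2.82 ± 0.13 or 7.04-fold. Egln1, the main HIF prolyl hydroxylase, rose by 1.45 ± 0.10 from 8.61, 8.36 and 8.40 to 9.85, 9.91 and 9.96. Vhl, the substrate receptor of the ligase that destroys HIF alpha, rose by 0.71 ± 0.11 (adjusted p = 0.00549). The subunits were not called: Hif1a stood at -0.10 ± 0.17, with 9.67, 10.39 and 10.22 in ethanol and 10.01, 10.06 and 9.92 with DP, and Epas1, encoding HIF-2 alpha, at 0.10 ± 0.17. The sign of both turned in some alternative fits, to 0.12 for Hif1a and -0.03 for Epas1 with the mean of probe sets. Cited2, which competes with HIF for CBP and p300, stood at 0.39 and was not called.

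Some other enzymes that need iron and 2-oxoglutarate also rose at the RNA level. The lists they were read from also hold genes of other kinds, such as Kdm1a and P4hb. Of 19 histone demethylases and TET enzymes, 4 rose: Kdm4b by 1.52 ± 0.12, Jmjd6 by 1.51 ± 0.12, Kdm3a by 1.44 ± 0.17 and Kdm5b by 0.49 ± 0.09. Kdm3a, which removes methyl groups from histone H3 lysine 9, read 8.20, 8.55 and 8.50 in ethanol and 9.81, 9.92 and 9.84 with DP. Jmjd6 read 8.26, 7.77 and 7.91 before and 9.43, 9.52 and 9.52 after, although 1 of its 3 probe sets changed by only 0.09. The Kdm5b call was lost without any of 4 dKO arrays, those of line 5, the ethanol array of line 1 and the DP array of line 6 (adjusted p up to 0.095). Of 17 collagen and protein hydroxylases, 3 rose: Plod2, a lysyl hydroxylase of collagen, by 1.22 ± 0.17, Alkbh5, an RNA demethylase, by 0.93 ± 0.09, and P4ha2, a subunit of collagen prolyl hydroxylase, by 0.88 ± 0.11. Car12, encoding a carbonic anhydrase at the cell surface, was the single called member among 11 genes of pH control. It read 3.70, 3.50 and 3.58 in ethanol, just above the blank level, and 4.43, 4.91 and 4.23 with DP, a rise of 0.93 ± 0.15. Its second probe set changed by -0.15, and averaging both ended the call (adjusted p = 0.1), as did a fit of the dKO arrays alone (adjusted p = 0.061).

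A further list of 32 genes taken here as HIF targets held 16 rises and no fall, beside 1.01% of all genes that rose. Its median change was 0.72. The list was chosen with earlier results of these data known, so these counts only describe it. Ankrd37, encoding an ankyrin-repeat protein, read 4.32, 4.39 and 4.20 in ethanol and 8.66, 8.48 and 8.38 with DP, a rise of 4.20 ± 0.11 or 18.4-fold (adjusted p = 7.35e-10). Ak4, a mitochondrial adenylate kinase, rose by 3.64 ± 0.11 or 12.5-fold from 6.96, 6.79 and 6.83 to 10.47, 10.42 and 10.61. It was the single call among 6 adenylate kinases, and its 5 probe sets ranged from 0.17 to 3.99. Ndrg1, a stress-induced gene widely used as a hypoxia marker, rose by 3.11 ± 0.14 from 6.01, 5.77 and 5.69 to 8.96, 9.14 and 8.71.

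Bhlhe40, a transcriptional repressor that also damps the circadian clock, rose by 2.34 ± 0.12 from 7.69, 7.21 and 7.33 to 9.82, 9.71 and 9.72. Ddit4, which restrains mTOR complex 1, rose by 1.74 ± 0.15 from 9.20, 8.81 and 8.64 to 10.71, 10.81 and 10.36. Ero1a, an oxidase of the endoplasmic reticulum, read 8.76, 9.54 and 9.43 in ethanol and 11.04, 10.95 and 11.16 with DP, and rose by 1.81 ± 0.19. Hilpda, a protein of lipid droplets, rose by 2.28 ± 0.18 from 6.91, 6.27 and 6.34 to 8.94, 8.93 and 8.50. Rora, a nuclear receptor of the clock, read 5.57, 6.71 and 6.98 in ethanol and 8.20, 8.15 and 8.24 with DP, a rise of 1.78 ± 0.27 in which line 1 started lowest. Without the ethanol arrays of dKO line 1 and wild-type line 5 its adjusted p was 1.05e-05, beside 0.00371 with all arrays. These 2 arrays were chosen as deviating from these same data, so the lower value is no independent support. Some members moved little: Fut11 stood at -0.03, Pam at -0.02, Plin2 at -0.31 and Rab20 at -0.42.

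**Figure D3:**
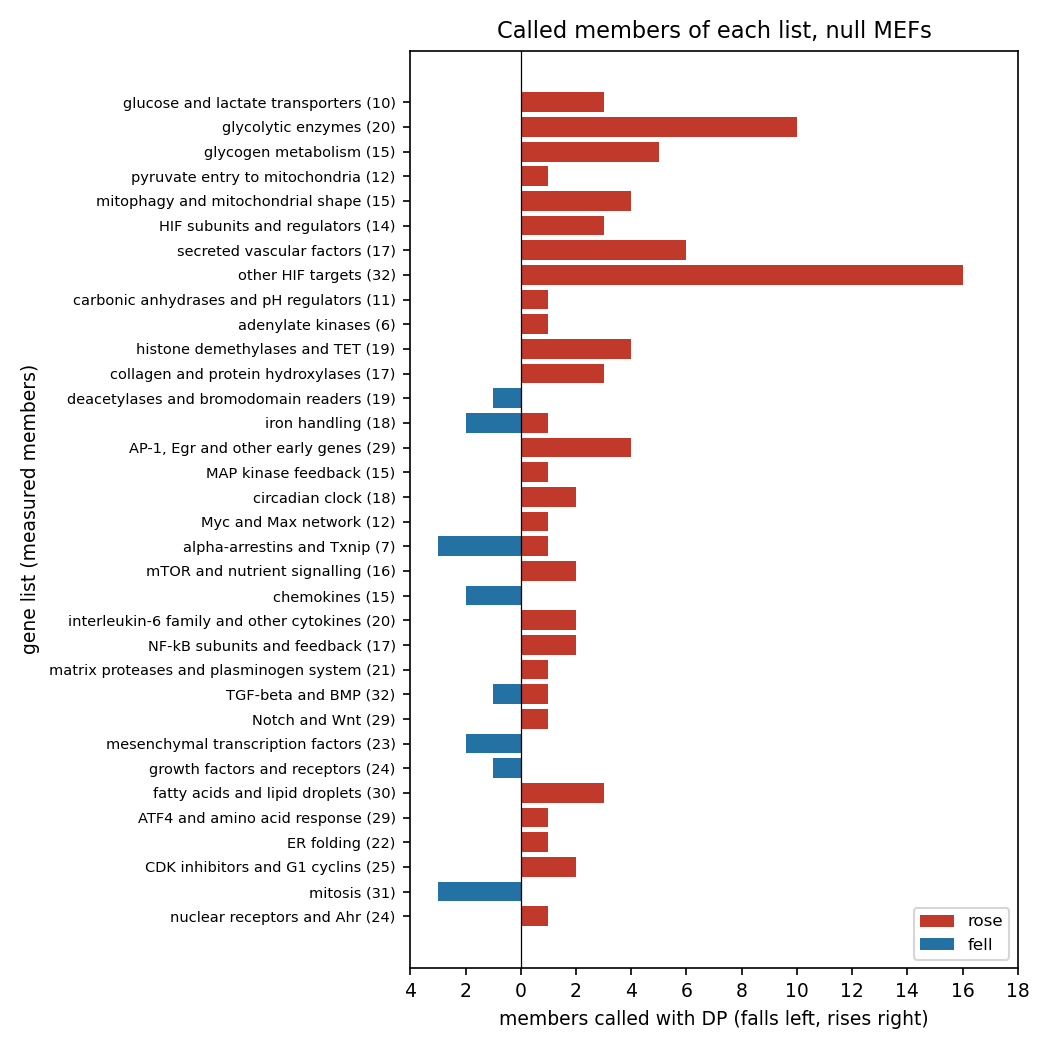
Members called in dKO cells for each of the lists with at least 1 call, with falls drawn to the left in blue and rises to the right in red (number of genes), and measured members in brackets. Rises predominate in the lists of HIF targets (16 of 32) and glycolytic enzymes (10 of 20). Falls outnumber rises in alpha-arrestins and Txnip (3 against 1), mitosis (3), chemokines (2), mesenchymal transcription factors (2) and iron handling (2 against 1). Deacetylases and bromodomain readers and growth factors and receptors hold 1 fall each and no rise. In the fit of the dKO arrays alone, falls remained only in alpha-arrestins and Txnip (2) and chemokines (1).

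Iron genes were followed because DP binds iron. Of 18 measured genes of iron handling, 1 rose and 2 fell (1.01% of all genes rose and 0.491% fell). Tfrc, the transferrin receptor that takes up iron and whose mRNA is stabilised when iron is short, read 8.19, 8.99 and 8.98 in ethanol and 10.20, 10.20 and 10.29 with DP. It rose by 1.51 ± 0.28 (adjusted p = 0.0165), but 1 of its 3 probe sets was called and the lowest changed by 0.10, and the array's Tfrc control probe sets, at 3.12 to 3.77 on dKO arrays, lay about the blank level. The call did not hold without the ethanol array of line 1 or any single DP array of dKO (adjusted p up to 0.0777). Without both deviating ethanol arrays, those of dKO line 1 and wild-type line 5, the adjusted p was 6.13e-05. Those arrays were chosen from these same data, so this value is no independent support. Cybrd1, a ferric reductase, fell by 0.53 ± 0.11 to a level near blank, and Slc25a28, the mitochondrial iron importer mitoferrin 2, fell by 0.52 ± 0.11. With the MEF line as a replicate block the adjusted p of Slc25a28 was 0.093. Each of these 2 calls was lost without 1 of several arrays, with adjusted p up to 0.169. None was called among 17 genes of haem and iron-sulphur synthesis, 11 of metallothioneins and zinc or 20 of the NRF2 and glutathione system. Hmox1, haem oxygenase, stood at 0.52 ± 0.29, with levels from 8.61 to 9.77 in ethanol and from 9.66 to 10.07 with DP that overlapped.

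Early-response genes rose in part. Of 29 AP-1, Egr and other early genes, 4 rose (1.01% of all genes rose). Ier3, an early gene that modulates survival signalling, read 10.44, 10.17 and 10.35 in ethanol and 11.77, 11.84 and 11.77 with DP, a rise of 1.47 ± 0.10 (adjusted p = 1.48e-06). Fosl1 and Fosl2, Fos-related partners of Jun, rose by 0.99 ± 0.19 and 0.71 ± 0.11, and Ptgs2, the inducible cyclooxygenase, by 0.72 ± 0.13. The Fosl1 and Ptgs2 calls were lost without the DP array of line 1 or line 5, and that of Ptgs2 also without the ethanol array of line 1 or 6 (adjusted p up to 0.0867). None of 13 CREB targets and NR4A receptors was called. Per1, a clock gene also induced by cyclic AMP, stood at 0.66 ± 0.16 with DP arrays all above the ethanol arrays (adjusted p = 0.0721), and was called without the ethanol array of dKO line 1 or of wild-type line 3 or 5. Spred2, an inhibitor of the Ras pathway, was the single call among 15 genes of MAP kinase feedback, at 0.48 ± 0.09. It lost its call without any of 4 dKO arrays, the ethanol arrays of lines 1 and 5 and the DP arrays of lines 1 and 6 (adjusted p up to 0.0996).

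Of 17 NF-kB subunits and feedback genes, 2 rose. Tnfaip3, encoding the deubiquitinating enzyme A20 that shuts off NF-kB, rose by 1.81 ± 0.10 from 6.26, 5.99 and 6.08 to 7.93, 7.85 and 7.97, although a second probe set changed by 0.44. Nfkbiz, an atypical IkB, rose by 0.91 ± 0.15. Of 20 cytokines, 2 rose: Tnfsf9, the ligand of the T cell receptor 4-1BB, by 2.59 ± 0.13 from 6.63, 6.34 and 6.11 to 8.85, 9.02 and 8.98, and Lif, leukaemia inhibitory factor, by 0.62 ± 0.10. The chemokines went the other way, with 2 of 15 lower and none higher (0.491% of all genes fell). Ccl7, which attracts monocytes, read 7.11, 7.03 and 6.72 in ethanol and 5.54, 5.51 and 4.84 with DP. Its fall of 1.66 ± 0.19 (adjusted p = 0.000285) was the largest in dKO cells among genes with 1 symbol. Ccl2, its neighbour in function, fell by 0.83 ± 0.17 from 5.99, 6.45 and 6.33 to 5.62, 5.42 and 5.23, a call that was lost without any of 5 arrays, the ethanol and DP arrays of dKO lines 5 and 6 and the DP array of wild-type line 5 (adjusted p up to 0.144). No interferon-stimulated gene of 19 was called. Rsad2 had the largest value, 0.81 ± 0.19 (adjusted p = 0.0638), and was called without the ethanol array of line 6.

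Nutrient sensors gave the largest fall after Ccl7. Txnip, an alpha-arrestin that restrains glucose uptake and binds thioredoxin, read 10.19, 10.23 and 10.06 in ethanol and 8.67, 8.88 and 8.80 with DP. It fell by 1.37 ± 0.10, to 0.386 of its ethanol level (adjusted p = 6.23e-06), and its second probe set gave -1.75. Of the 7 genes of this list, 3 fell and 1 rose. Mid1ip1, a regulator of lipid synthesis that responds to glucose, fell by 1.15 ± 0.13 from 8.03, 7.57 and 7.56 to 6.52, 6.70 and 6.48. Arrdc4, an alpha-arrestin close to Txnip, fell by 0.58 ± 0.13, and its call was lost without any of 10 of the 12 arrays (adjusted p up to 0.193). Arrdc3, another alpha-arrestin, rose by 1.13 ± 0.16 from 5.75, 6.53 and 6.47 to 7.31, 7.39 and 7.45. Of 16 genes of mTOR and nutrient signalling, 2 rose, Ddit4 and the transcription factor gene Foxo3, the latter by 0.85 ± 0.09. Mxi1, an antagonist of Myc, was the single call among 12 genes of the Myc and Max network and rose by 1.19 ± 0.14. None of 28 ribosome biogenesis genes was called, with a median of -0.23.

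**Figure D4:**
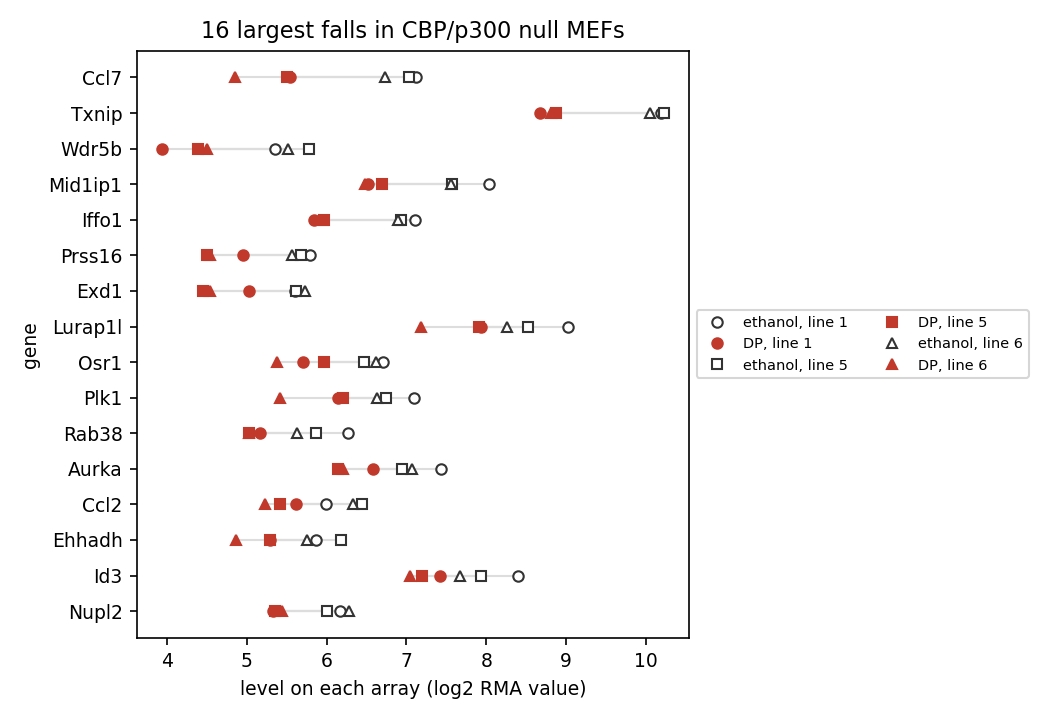
Levels (log2 RMA value) of the 16 largest falls on each of the 6 dKO arrays, 1 row per gene, with open symbols for ethanol, filled symbols for DP and a symbol shape for each line. The filled symbols lie to the left of the open ones for all 16 genes, by -1.66 for Ccl7 and by -0.77 for Nupl2.

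Among the cell cycle genes, 2 of 25 CDK inhibitors and G1 cyclins rose (1.01% of all genes did) and 3 of 31 mitotic genes fell (0.491% of all genes did). Ccne2, a cyclin E, rose by 1.51 ± 0.20 from 4.72, 5.41 and 5.21 to 6.72, 6.81 and 6.34, and Ccng2, a cyclin linked to arrest, rose by 1.44 ± 0.11 from 9.17, 9.38 and 9.40 to 10.74, 10.82 and 10.73. Aurka, a kinase of the spindle pole, fell by 0.84 ± 0.15 from 7.43, 6.94 and 7.06 to 6.58, 6.14 and 6.20. Plk1, another mitotic kinase, fell by 0.90 ± 0.20 from 7.10, 6.74 and 6.63 to 6.14, 6.21 and 5.41, and Cdc20, which switches on the anaphase-promoting complex, fell by 0.69 ± 0.13. For all 3 the ethanol array of line 1 was the highest. The Plk1 call was lost without any of 10 arrays (adjusted p up to 0.178), that of Cdc20 without the ethanol array of line 1 or any DP array of dKO (up to 0.107), and that of Aurka without the DP array of line 5 or 6 (up to 0.0715). In the fit of the 6 dKO arrays alone none of these 3 genes was called. No S phase gene of 24 and no p53 target or apoptosis gene of 25 was called.

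Lipid and amino acid genes changed singly. Of 30 genes of fatty acids and lipid droplets, 3 rose: Hilpda, given above, and the fatty acid carriers Fabp4 and Fabp5, by 1.06 ± 0.20 and 0.77 ± 0.16. The Fabp4 call did not hold without the ethanol array of line 1 or any DP array of dKO, and that of Fabp5 without the ethanol array of line 6 or the DP array of line 1 or 5 (adjusted p up to 0.127). Vldlr, a lipoprotein receptor, was the single call among 29 ATF4 and amino acid genes and rose by 1.92 ± 0.08, from 6.72, 6.75 and 6.84 to 8.70, 8.70 and 8.69, with all 5 probe sets called. Ero1a was the only call among 22 genes of folding in the endoplasmic reticulum, and none of 11 heat shock genes was called. Tiparp, an ADP-ribosyltransferase induced by the Ah receptor, was the single call among 24 nuclear receptor and Ahr genes. It rose by 1.50 ± 0.22 from 7.25, 8.09 and 7.97 to 9.20, 9.31 and 9.29. This list did not hold Rora, a nuclear receptor gene that was called and is given above. None of 17 cholesterol synthesis genes was called.

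Genes of fibroblast identity and matrix gave few calls. With 1.5% of all genes called, lists of this size would hold few or none in any case. The same holds for the other lists with no call. No call was made among 19 collagens, 26 other matrix genes and lysyl oxidases, 17 actin, contractile and SRF genes, 25 Hox genes, 8 genes of insulin-like growth factors or 22 of lysosome and autophagy. The median change of the collagens was 0.00. Among the other matrix genes the highest value was that of Aspn, encoding the proteoglycan asporin, at 1.03 ± 0.52 (adjusted p = 0.383). It read 4.99, 6.37 and 4.49 in ethanol and 6.91, 7.11 and 4.92 with DP, so the groups overlapped. Ogn, another small proteoglycan gene, stood at 0.89 ± 0.31 and was called without the ethanol array of dKO line 5 (adjusted p = 0.0322), when 2 genes of this list were called. With array weights 5 of them were called. Of 23 mesenchymal transcription factors, 2 fell: Foxc1 by 0.53 ± 0.10 and Sox4 by 0.48 ± 0.09. Of 32 TGF-beta and BMP genes, Id2, an inhibitor of basic helix-loop-helix factors, rose by 0.64 ± 0.11, and Id3, its paralog, fell by 0.79 ± 0.17. Single calls came from Adamts9, a matrix protease (0.51 ± 0.10, of 21 proteases), Rbpj, the DNA-binding partner of Notch (0.48 ± 0.10, of 29 Notch and Wnt genes), and Efnb1, an ephrin (-0.48 ± 0.11, of 24 growth factors and receptors). The calls of these 7 genes were each lost without 1 of several arrays, at least 2 and at most 10, with adjusted p up to 0.18. With the MEF line as a replicate block, the adjusted p was 0.061 for Adamts9, 0.0703 for Rbpj and 0.0538 for Efnb1.

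Coactivators and chromatin readers gave 1 call, where 1.5% of all genes were called. None of 18 acetyltransferases and coactivators was called, and of 19 deacetylases and bromodomain readers Sirt5, a mitochondrial deacylase, fell by 0.70 ± 0.15. The Sirt5 call was lost without any of 10 arrays (adjusted p up to 0.162). Several uncalled genes with the largest values of their lists shared 1 feature, a low ethanol array of line 1. Atf2 read 7.31 on that array against 8.73 and 8.37 on the others in ethanol, and 8.73, 8.74 and 8.62 with DP. Npm1 read 10.22 against 11.34 and 11.02, Hsp90aa1 10.22 against 11.53 and 11.45, Xiap 8.04 against 9.51 and 9.16, and Trp53inp1 8.98 against 10.55 and 10.05. Crebbp had the same form, with 7.02 against 7.68 and 7.54, and its change of 0.19 ± 0.16 became -0.00 without that array.

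Fibroblast markers were present and none of 12 was called, with levels from 3.42 for the Col1a2 probe set, near blank, upward. Their summed level lay between 92.96 and 98.81 in ethanol and between 91.83 and 97.73 with DP. The macrophage markers Adgre1, Itgam and Ptprc were near blank in both treatments, as were Pecam1, Cdh5, Emcn, Tek and Tie1 of endothelium, Myod1, Myog and Myh3 of muscle, Sox2 and Gfap of neural cells, Acan and Matn1 of cartilage and Adipoq of adipocytes. They made up 3 of 6 measured macrophage markers, 5 of 6 of endothelium, 3 of 5 of muscle and 2 of 5 of neural cells. Of cartilage they were 2 of 4, and of adipocytes 1 of 4. The other markers of these lists had ethanol means above the near-blank limit, so the lists do not show that such cells were absent. No marker of macrophage, endothelium, muscle, neural, erythroid or cartilage cells was called. Krt19, a keratin of simple epithelia, rose by 1.43 ± 0.17 from 6.28, 6.04 and 6.55 to 7.79, 7.62 and 7.73, while Epcam, Cdh1, Krt8, Krt18 and Krt14 were not called. Fabp4 was the only one of 4 adipocyte markers called. Hba-a1, a haemoglobin gene, read 6.22 on the ethanol array of line 5 against 4.01 and 3.87 on the others in ethanol.

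The largest falls outside these lists were those of Wdr5b, a WD-repeat gene, by 1.27 ± 0.16 from 5.35, 5.78 and 5.51 to 3.94, 4.38 and 4.50, and of Iffo1, a nuclear intermediate filament family gene, by 1.06 ± 0.10 from 7.11, 6.93 and 6.89 to 5.84, 5.97 and 5.95. In both, the 3 DP arrays lay below all ethanol arrays, as for all 84 called falls and for 14.4% of all genes. The second probe set of Iffo1 changed by -0.28 and was not called, and the mean of its probe sets fell by 0.67. Prss16, encoding a serine protease, fell by 1.01 ± 0.12 from 5.79, 5.67 and 5.57 to 4.95, 4.50 and 4.54, and Exd1 by 0.98 ± 0.15. Osr1, a zinc-finger factor of mesenchyme, fell by 0.92 ± 0.15 from 6.70, 6.47 and 6.61 to 5.71, 5.96 and 5.37, Rab38, a small GTPase, by 0.85 ± 0.14, Nupl2, encoding a nucleoporin-like protein, by 0.77 ± 0.09, and Ehhadh, an enzyme of peroxisomal fatty acid oxidation, by 0.79 ± 0.14. Lurap1l fell by 0.93 ± 0.21 with the widest spread, from 9.02, 8.52 and 8.26 to 7.93, 7.91 and 7.19 (adjusted p = 0.0463), and its call was lost without any of 10 arrays (up to 0.155). That of Ehhadh was lost without the DP array of line 6 (0.0581).

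The smallest called changes show where the threshold lies. Caml fell by 0.37 ± 0.08 from 9.25, 9.25 and 9.36 to 8.88, 8.99 and 8.89, and Npepps, an aminopeptidase gene, rose by 0.37 ± 0.08. Rnaseh1, Tspyl4 and Rhno1 fell by 0.39 ± 0.09, 0.41 ± 0.09 and 0.42 ± 0.09. Eno1b, listed as a copy of the enolase gene Eno1, rose by 0.39 ± 0.08, and how far its probe set also reads Eno1 was not tested. All 6 calls were lost with the MEF line as a replicate block (adjusted p from 0.0785 to 0.119) and without 1 of at least 6 arrays each (up to 0.182). Just outside the threshold stood Ifi202b at 0.99 (adjusted p = 0.0502), Gpatch4 at -0.45 (0.0507) and Fosb at 0.54 (0.0509), chosen here after their values were seen.

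Against wild type, the question was how far the DP response of dKO cells differed in size. In wild-type cells 808 genes were called (4.73% of those tested), 522 up (3.05%) and 286 down (1.67%), and 197 genes were called in both genotypes, 77.0% of the dKO calls and 24.4% of the wild-type calls. The contrasts share no arrays, though they share 1 estimate of spread. Of the 172 rises in dKO, 107 had a smaller change there than in wild type, and the median wild-type change of these 172 genes was 1.41. The difference of the DP effects itself was called for 96 genes (0.562%), 8 of them positive as dKO minus wild type (0.0468%) and 88 negative (0.515%). Of the 256 genes called in dKO, 36 had a called difference: 26 rises were smaller in dKO, 7 rises were larger, and 3 falls had a more negative change in dKO. Genotype and sex cannot be told apart here, since Xist, the RNA of the inactive X chromosome, lay between 3.94 and 5.32 on dKO arrays and between 10.28 and 10.75 on wild-type arrays. The beta-actin 3' to 5' difference also separated the genotypes, at 0.23 to 0.38 on wild-type arrays, and its part was not tested.

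The 7 rises that were larger in dKO than in wild type included Ak4 (3.64 against 1.99, a difference of 1.65 ± 0.15, adjusted p = 0.000151) and Pfkfb3 (4.36 against 2.95, 1.41 ± 0.18, adjusted p = 0.0025). Bnip3 rose by 2.61 against 1.53, Tnfsf9 by 2.59 against 1.59, Slc16a3 by 2.08 against 1.12, Fam162a by 1.31 against 0.68, and Prelid2, which encodes a PRELI-domain protein, by 2.10 against 0.94. The limma adjusted p of the difference ran from 0.000151 to 0.044 over these 7 genes, which were picked because it was below 0.05. The eighth gene with a positive difference, Ahr, encoding the aryl hydrocarbon receptor, was not called in dKO (0.08). Hk2, Pdk1, Vegfa and Ndrg1, at 2.01, 1.46, 2.03 and 2.86 in wild type, did not have a called difference.

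Of the 88 genes with a negative difference, 59 were not called in dKO, and each of these was a called rise in wild type. Their median change was 0.15 in dKO against 1.36 in wild type, and 43 of them had a positive value in dKO. These 59 genes were picked by a called negative difference and no call in dKO. Their wild-type calls and the gap between the medians follow largely from that choice. Amz1, a metallopeptidase gene chosen after its values were seen, stood at 0.08 ± 0.13 in dKO, with both means near blank, against 2.33 in wild type. Fos, an immediate early transcription factor gene chosen in the same way, stood at 0.17 ± 0.20 against 1.97. The genes that follow were chosen among those called in dKO, so their rise there comes from that choice. Selenbp1 and Selenbp2, encoding selenium-binding proteins, rose by 1.30 ± 0.16 and 1.27 ± 0.18 in dKO and by 5.10 and 5.18 in wild type. Selenbp1 read 4.81, 4.63 and 4.67 in ethanol and 6.05, 6.14 and 5.81 with DP in dKO cells. As for every called gene, the DP and ethanol arrays did not overlap. These genes are near-identical copies, and cross-reading between their probe sets was not tested. Car12 rose by 0.93 against 3.65 in wild type, Rab33a, a small GTPase, by 1.43 against 3.59, Slc2a3 by 1.39 against 3.49, Ppp1r3c by 2.73 against 4.65, Me2, a mitochondrial malic enzyme, by 1.1 against 2.99, and Reep1, a shaper of the endoplasmic reticulum, by 0.65 against 2.37. The Reep1 call in dKO was lost without any of 7 arrays (adjusted p up to 0.136). Vascular factors divided: Pgf rose by 2.60 against 4.25 and Apln by 2.30 against 3.73, both with a called difference, whereas Stc1, Stc2 and Adm had none.

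Of the 59 genes called in dKO and not in wild type, 22 rose and 37 fell, and the difference was called for 1 of them, Prss16 (-1.01 against -0.11, a difference of -0.90 ± 0.17, adjusted p = 0.0391). For the others, a call in 1 genotype does not show that the response differed. Among them were Pfkl, Ldha, Tpi1, Pgk1 and Aldoa, at 0.68, 0.24, 0.34, 0.32 and 0.19 in wild type, and for these 5 the adjusted p of the difference ran from 0.0659 to 0.603. Glycolytic enzymes thus counted 10 rises in dKO and 5 in wild type, with a called difference for Pfkfb3 only. Txnip fell further in dKO (-1.37 against -0.47, a difference of -0.90 ± 0.15, adjusted p = 0.0115). Rnf144b, a ubiquitin ligase gene, was the only gene called in both genotypes with opposite signs: it read 5.74, 5.73 and 5.69 in ethanol and 5.28, 5.29 and 5.21 with DP in dKO, a change of -0.46 ± 0.09, against 0.52 in wild type (difference -0.97 ± 0.13, adjusted p = 0.00326). Its dKO call had an adjusted p of 0.0513 with the MEF line as a replicate block and was lost without any of the 6 dKO arrays (up to 0.125).

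**Figure D5:**
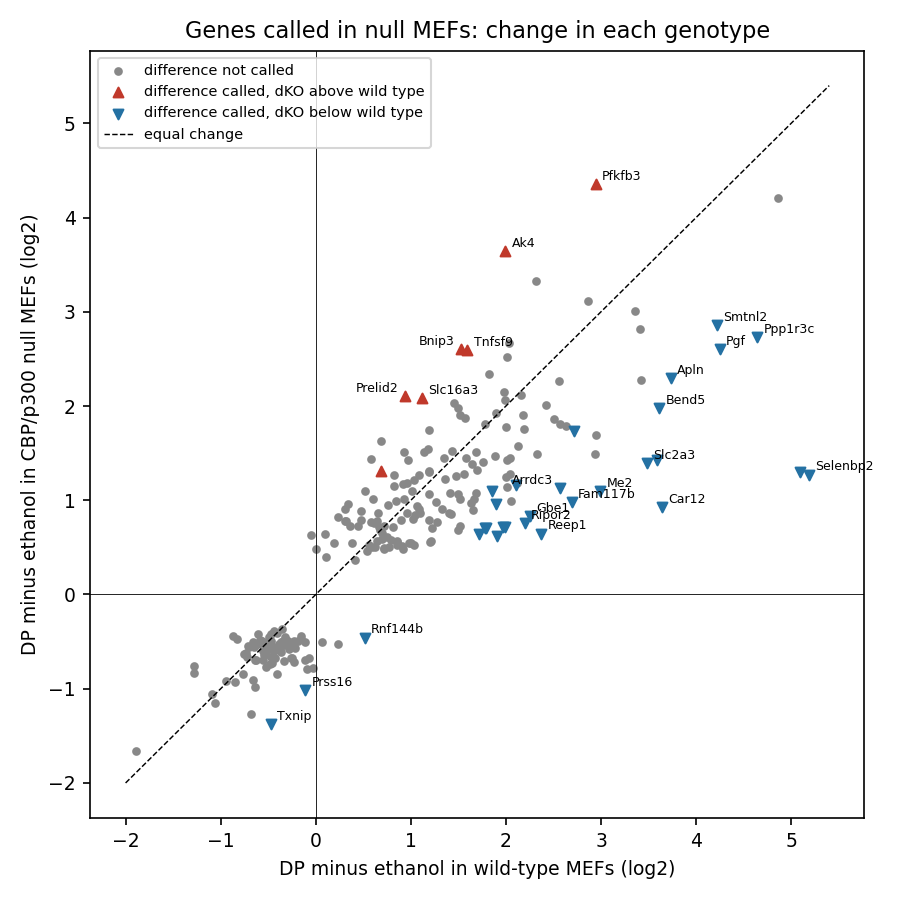
Change with DP in dKO cells (log2, vertical) against that in wild-type cells (log2, horizontal) for the 256 genes called in dKO, with genes of called difference as triangles and the dashed line marking equal change. The 7 red triangles above the line include Ak4 and Pfkfb3, and the blue triangles below it include Selenbp2 (1.27 against 5.18) and Rnf144b.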

How the data were processed

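RNA of 12 cultures was hybridized to 1 Affymetrix array each. The deposited values are on a log2 scale. Per the submitters' processing notes, the authors obtained them with Affymetrix Expression Console 1.1 by RMA, which subtracts a background model, quantile-normalizes and combines the probes of a set, and understates changes at low levels. The number of arrays limits the precision. Replicates are numbered MEF lines, and no source states whether each came from its own embryo. The p-values of the main fit rest on the spread between the lines within each group, pooled over all groups of both genotypes. That fit does not use the pairing by line, so it does not measure how the DP change itself varied between the dKO lines.

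Of 45141 probe sets, 104 controls, 551 with several gene symbols and 15588 with none were set aside (the last were counted separately). A gene with several probe sets (7180 of 17097) was read by the one with the highest mean level. Tests used limma 3.58.1 in R 4.3.3 (lmFit and eBayes, 1 mean per group over 12 arrays, no block) for 3 contrasts: DP against ethanol in dKO, in wild type, and their difference. The fit was tested on simulated data. Tables and figures used Python 3.11.15, pandas 2.3.3, numpy 2.4.6 and matplotlib 3.10.9. Promoters came from RefSeq tables of GRCm38.p6.

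The labels give each numbered MEF both treatments, so the numbers pair the samples. Over 8917 genes, deviations of the ethanol and DP arrays of one line from their group means correlated at 0.04, 0.32 and 0.36 for dKO lines 1, 5 and 6. The alternatives tried included a block for MEF line, the dKO arrays alone, cyclic loess, median centring, a filter on dim genes, the mean of probe sets, an intensity trend, array weights and leaving out arrays.

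The members, the 54 pathway and 9 marker lists (1169 genes, 1062 measured), and the tests were chosen with earlier results of these data known. Named genes are the 16 largest rises and 16 largest falls with 1 direction in all lines, up to 4 called members of each list (or the 2 of largest change), up to 8 called genes of largest positive and 8 of largest negative difference, the 6 smallest called changes, genes called with opposite signs, and Crebbp, Hif1a, Epas1, Vegfa, Slc2a1, Tfrc, Txnip, Actb and Gapdh. Other list members were named to describe their list, after their values were seen.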

Additional observations from a re-analysis of the deposited data

Results flagged for a closer look

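For 26 named genes the change with DP differed between the genotypes by limma's test of the difference (adjusted p under 0.05), given here as dKO minus wild type in log2 units. The positive differences were 1.65 for Ak4, 1.41 for Pfkfb3, 1.16 for Prelid2, 1.08 for Bnip3, 1.00 for Tnfsf9, 0.96 for Slc16a3 and 0.63 for Fam162a. The most negative were -3.91 for Selenbp2, -3.80 for Selenbp1, -2.71 for Car12, -2.16 for Rab33a and -2.09 for Slc2a3. Those of Ppp1r3c, Me2, Reep1 and Pgf were -1.92, -1.89, -1.73 and -1.65. Arrdc3, Apln, Smtnl2 and Lif stood at -1.44, -1.43, -1.36 and -1.29, Id2 and Vhl at -1.07 each, and Ppp1r3b at -0.98. For genes that fell in dKO, the differences were -0.97 for Rnf144b, -0.90 for Txnip and -0.90 for Prss16. Genotype and sex cannot be told apart in these arrays.

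Probe sets with no listed gene symbol were outside the main measurement. Of 15588 such probe sets, 111 were called for DP in dKO cells (93 higher, 18 lower), or 0.712%, beside 316 (1.09%) of those with 1 symbol in the same limma fit of all probe sets. The unnamed probe set with the largest fall fell by 2.31 ± 0.16, further than Ccl7.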

How the results depend on the processing

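The 256 calls for DP in dKO became 142 with the dKO arrays alone, 149 with those arrays and the MEF line as a replicate block, 148 without dKO line 1, 99 with a change of at least 2-fold also required, and 1477 with array weights, whose estimation did not converge. With the MEF line as a replicate block in all 12 arrays they were 267, of which 211 were shared. Leaving out 1 array at a time gave 153 to 326 in dKO, 69 to 109 for the difference and 538 to 1010 in wild type. The difference had 267 calls with array weights, and wild type 1295 with array weights and 237 at 2-fold. Among genes named by the rule, the block ended the calls given in the report and no others. With ACGTG alone, the motif shares were 47.4% of rises, 26.7% of falls and 23.2% of all genes.

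Signs turned only for genes not called. With array weights the changes were 0.14 for Col5a3, 0.053 for Myl9, 0.20 for Lyz2, 0.074 for Acta1, 0.41 for Tubb3, 0.082 for Alas2 and 0.20 for Col2a1. With the mean of probe sets they were 0.089 for Igf1, 0.12 for Hif1a, -0.032 for Epas1 and 0.016 for Actb. Leaving out 1 array at a time moved Lyz2 between -0.56 and 0.30, Des between -0.46 and 0.10, Tubb3 between -0.63 and 0.056, Alas2 between -0.15 and 0.080, Crebbp between -0.0034 and 0.32 and Hif1a between -0.31 and 0.054. Without the ethanol arrays of dKO line 1 and wild-type line 5, Tubb3 stood at 0.056, Alas2 at 0.080 and Crebbp at -0.0034. Without dKO line 1, Alas2 stood at 0.10, Crebbp at -0.047 and Epas1 at -0.012. The cause of these shifts was not tested. Signal close to the blank level limits the size of changes in dim genes such as Stc1 and Car12.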

Other observations

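Of the 256 genes called in dKO cells, 163 stood on none of the lists, 94 that rose and 69 that fell. The genes below were chosen for their size after the values were seen. Smtnl2, a smoothelin-like gene, rose most among them, by 2.85 ± 0.12 from 3.72, 3.69 and 3.88 in ethanol to 6.81, 6.56 and 6.50 with DP in lines 1, 5 and 6. Bend5 rose by 1.98 ± 0.16, Tbl2 by 2.01 ± 0.13 and Rcor2, encoding a corepressor, by 1.91 ± 0.24. Ciart, a repressor within the circadian clock, rose by 1.78 ± 0.18 from 5.14, 4.93 and 5.29 to 7.13, 6.87 and 6.72. Proser2, Ppp1r3g, another glycogen-targeting subunit, and Gpr35, a G protein-coupled receptor, rose from ethanol means near blank, by 2.26 ± 0.17, 1.90 ± 0.13 and 1.87 ± 0.17, and these changes are understated.

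For some rises the ethanol array of line 1 was far below the others. Dubr, a long non-coding RNA, read 4.35 there against 6.30 and 5.83, and 7.55, 7.47 and 7.41 with DP. Its rise of 1.98 ± 0.42 (limma adjusted p = 0.0362) was not called without any single one of 8 arrays, the 3 DP arrays of dKO, the 3 DP arrays of wild type and the ethanol arrays of dKO lines 1 and 6 (adjusted p up to 0.127). Abhd18 read 3.98 against 5.26 and 5.01, and 6.86, 6.84 and 6.89 with DP. For both, the DP arrays lay above all ethanol arrays, as for all 172 called rises and for 6.32% of all genes.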
